A study of Rattus norvegicus with 12 samples.

Results

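Nuclear genes for the mitochondrial respiratory chain were followed in cultured smooth muscle cells of the rat aorta, either unedited (WT) or with the Thbs1 gene knocked out by CRISPR (KO). The genes were taken by symbol, as all rows that begin with Ndufa, Ndufb, Ndufc, Ndufs or Ndufv, that read Sdha, Sdhb, Sdhc or Sdhd, or that begin with Uqcr, Cox4 to Cox8 or Atp5. The rule itself uses no measured value, but it was set with earlier results of these data known. This gave 97 rows of the 22081 in the table: 39 rows of complex I and 8 of its assembly factors, 4 of complex II, 9 of complex III, 20 of complex IV and 17 of complex V. Rows were put in a complex by symbol alone: Nduf in I (Ndufaf as assembly factors), Sdh in II, Uqcr in III, Cox in IV and Atp5 in V. A row may thus be counted with a complex that its protein is not a subunit of. A low-count filter, described with the processing, kept 88 of them for testing. The 9 others were Cox4i2, Cox6a2, Cox6b2, Cox6c-ps1, Cox7a1, Cox7b2, Cox8b, Cox8c and Ndufa1.

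The 4 groups were WT static, WT stretch, KO static and KO stretch, with 3 poly(A) RNA libraries numbered 1 to 3 in each. All were primary Wistar rat cells bought from Lonza, grown in 20% serum to passages 5 to 8, plated on silicone elastomer and starved of serum for 24 h. Stretched cells then received uniaxial cyclic strain of 20% at 1.0 Hz, and the labels do not give its duration. KO cells had received a plasmid for Cas9, GFP and a guide RNA against Thbs1, the gene of thrombospondin-1, and were grown out from single sorted cells. The number of clones is not stated, so an effect of the knockout and a difference between clones cannot be told apart. Thbs1 itself was at 2091 to 3183 counts per 1e6 reads (CPM) in WT static, 1052 to 1704 in WT stretch, 443 to 637 in KO static and 283 to 435 in KO stretch libraries. It was lower in KO cells, by a log2 fold change of -2.25 ± 0.07 (SE) in static and -1.92 ± 0.07 in stretched cells. The labels do not state whether libraries 1 to 3 were separate cultures, so the p-values measure the spread between these libraries only, and that spread may be technical.

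The respiratory chain sits in the inner mitochondrial membrane. Complexes I and II take electrons from NADH and succinate, complex III passes them to cytochrome c, complex IV hands them to oxygen, and the proton gradient built on the way drives ATP synthesis at complex V. Most subunits are nuclear-encoded and imported, complexes I, III, IV and V also hold subunits made from mitochondrial DNA, and the transcription factors NRF1, GABP (an ETS factor) and YY1 are known regulators of many of the nuclear genes.

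The libraries held 16.8e6 to 38.0e6 exon reads, and the respiratory chain rows took 0.670% to 1.07% of them. In WT static cells, libraries 1, 2 and 3 gave 0.670%, 0.777% and 0.870% of exon reads to these rows. The shares were 0.718%, 0.740% and 1.03% for WT stretch. They were 0.770%, 0.776% and 0.992% for KO static, and 0.741%, 0.771% and 1.07% for KO stretch. Library 3 was the highest of its group in all 4 groups, and the 4 groups overlapped. In the edgeR quasi-likelihood fit, 82 of the 88 tested rows were higher at a Benjamini-Hochberg adjusted p (FDR) under 0.05 in the libraries numbered 3 than in those numbered 1 and 2, and 0 were lower, with a median log2 difference of 0.45. Of all tested genes 24% were called higher in number 3 and 25.7% lower. Between numbers 2 and 1 the median log2 difference of the 88 rows was 0.07. The respiratory chain rows are short, with a median exon length of 739.5 bases against 2400 for all tested genes, and the difference between number 3 and the others followed exon length at a Spearman rho of -0.70 over the 88 rows and -0.56 over all tested genes (a description across genes, which share the libraries). Every comparison below was therefore fitted with the library number as a block, so that it compares libraries of the same number.

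**Figure D1:**
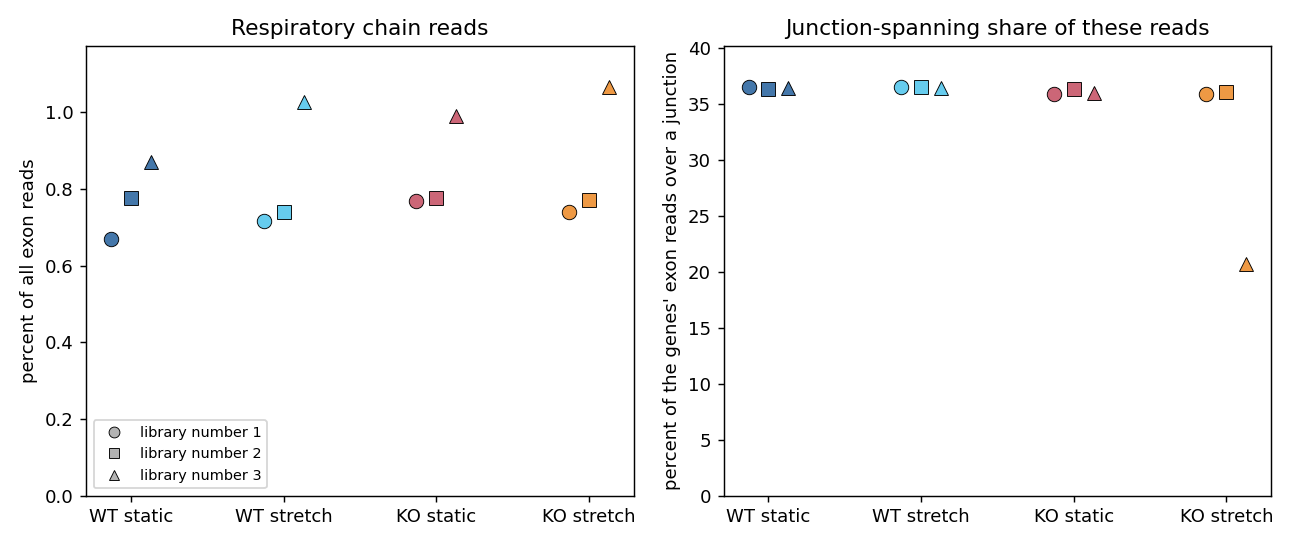
Left, percent of all exon reads that fell in the 97 respiratory chain rows, and right, percent of those reads that spanned an exon junction, for each of the 12 libraries (colour, group; marker, library number). Library 3 is the highest of each group on the left, and KO stretch library 3, at 20.7%, lies below the other 11 libraries, at 35.8% to 36.5%, on the right.

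KO stretch library 3 stood apart in a second way. Junction-spanning reads were 20.7% of its respiratory chain reads against 35.8% to 36.5% in the other 11 libraries, and 16.4% of its reads over all genes against 28.1% to 29.8%. Ndufa1, a complex I subunit gene on chromosome X, was listed with 0 reads in 11 libraries and 195 in KO stretch library 3, none of them unique. The single-exon row Ndufv3_1, which lies inside Klhl12 on chromosome 13, held 0 to 16 reads in the other libraries and 196 there. Cox6b1_2, also of 1 exon, held 183 to 683 reads elsewhere, 153 to 548 of them unique, and 1537 there, of which 494 were unique. Uniquely mapped reads were 83.1% of its exon reads over all genes, against 86.45% to 89.1% in the other 11 libraries. Counts in comparisons that use KO stretch are therefore given with and without this library. Values with unique reads only were not fitted without it.

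Levels in these cells ran from nearly silent to among the strongest genes of the table. Per length of exon (RPKM, mean of 12 libraries), the highest was Atp5f1b, the catalytic beta subunit of ATP synthase, at 374 RPKM, rank 166 of 22081 rows. Cox4i1, the widespread isoform of cytochrome c oxidase subunit 4, followed at 319, then Atp5mc2, a gene of the proton-carrying c subunit, at 285, Cox6a1 at 279 and Atp5mf at 253. In all, 27 rows exceeded 100 RPKM and 9 stayed under 1. Over the tested rows, the median level was 134 RPKM for complex V, 156 for complex IV, 69.0 for complex III, 56.8 for complex II and 53.5 for complex I. The 8 complex I assembly factors, which act while the complex is built and are not part of it, were lower, from 2.93 (Ndufaf4) to 19.9 RPKM (Ndufaf8).

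**Figure D2:**
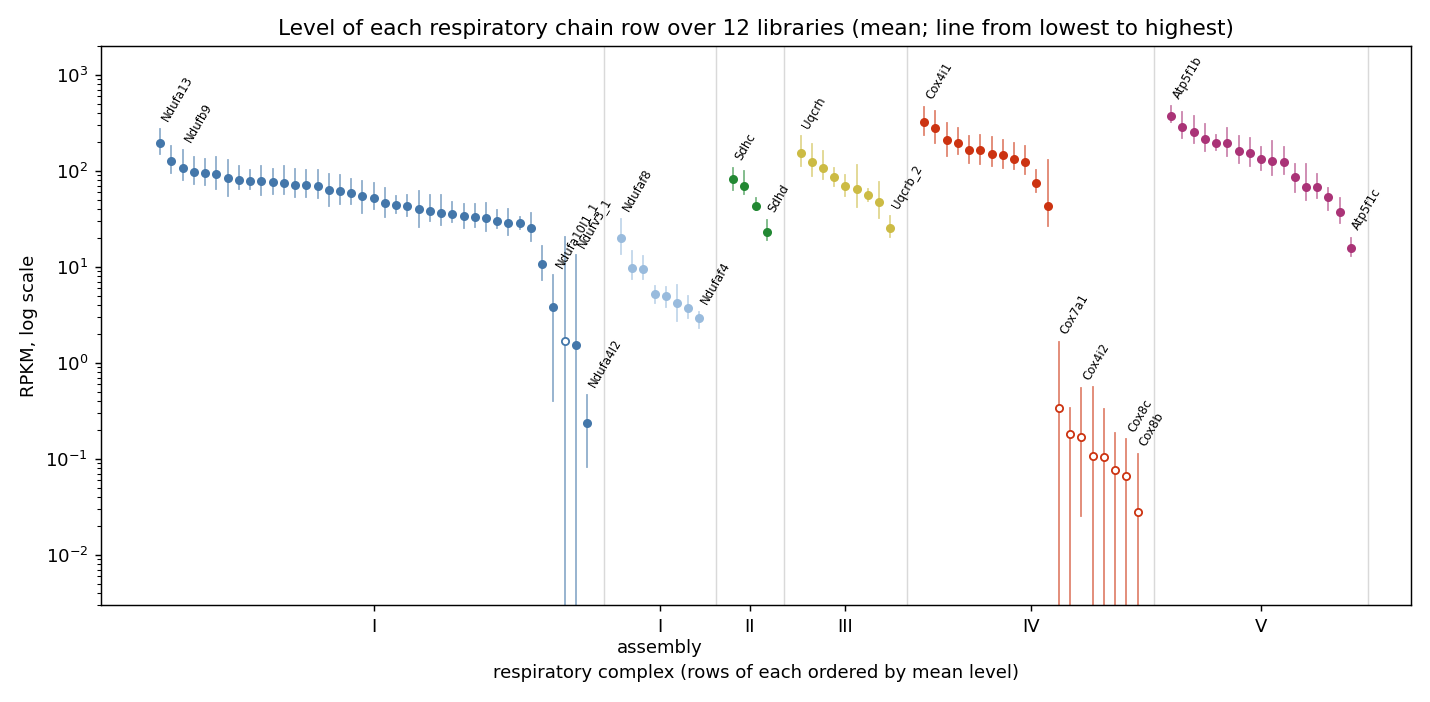
Level of each of the 97 rows on a log RPKM axis, grouped by complex (point, mean of 12 libraries; line, lowest to highest library, drawn to the bottom of the axis where a library is at 0; open points, rows below the filter). The isoforms of complex IV named for other tissues lie at 0.34 RPKM or less, while Cox4i1 and Atp5f1b lie at 319 and 374 RPKM.

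A set of 10 reference subunits was followed in every comparison, namely Ndufs1, Ndufv1, Sdha, Sdhb, Uqcrc1, Uqcrfs1, Cox4i1, Cox5a, Atp5f1a and Atp5f1b. For complex I, Ndufs1, its largest iron-sulfur subunit, was at 28.4 RPKM and Ndufv1, which binds NADH, at 44.2. For complex II, the flavoprotein Sdha was at 43.3, the iron-sulfur subunit Sdhb at 70.3 and the membrane anchors Sdhc and Sdhd at 81.7 and 23.3. Uqcrc1, a core protein of complex III, was at 69.0 and Uqcrfs1, the Rieske iron-sulfur protein, at 87.0. Cox5a of complex IV was at 124 and Atp5f1a, the alpha subunit of ATP synthase, at 195 RPKM.

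The paralogues known from heart and skeletal muscle, lung, testis or hypoxic cells were at the edge of detection in all groups. Cox4i2, the lung and oxygen-regulated partner of Cox4i1, held 1 to 26 reads per library. The muscle isoforms Cox6a2 and Cox8b held 0 to 5 and 0 to 1 reads, and Cox7a1 held 0 to 18 reads of which none was unique. The testis isoforms Cox6b2, Cox7b2 and Cox8c held 0 to 4, 0 to 3 and 0 to 3 reads. Ndufa4l2, a hypoxia-induced relative of Ndufa4, held 3 to 15 reads. The common partners were far higher, with Ndufa4 at 126, Cox6b1_1 at 166, Cox7b at 163 and Cox8a at 149 RPKM. Cox6c-ps1, a pseudogene row, held 0 to 6 reads. For the labelled cell type, 7 smooth muscle markers summed to 2979 to 6120 CPM over the 12 libraries.

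Not every row could be read as a single gene. Of the 97 rows, 72 had over 90% uniquely mapped reads and 11 had under 50%. Atp5pb had 0% unique reads and shares its span with LOC100911453 and Wdr77, and Atp5md had 1.86% and lies within Wnk4. Over all 12 libraries, Cox6a1 (48.1%), Ndufb3 (40.1%), Ndufb4 (38.5%) and the single-exon row Uqcrb_1 (34.5%) shared most of their reads with other loci. Their values are therefore uncertain. For Cox6a1, 1301 of 10452 reads were unique in KO stretch library 3, and 5824 of 10430 in KO static library 3. Ndufb6 overlaps Topors by 212 bases and Ndufa2 overlaps Tmco6 by 70 bases. Since the strand setting of the counting is not stated, reads in such overlaps cannot be assigned to a strand.

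Promoters were compared because many of these genes share regulators. RefSeq promoters on GRCr8, from 250 bases before to 50 bases after the gene's start, matched 79 of the 97 rows by symbol and chromosome. On either strand, the NRF1 letters, GCGC then any 2 bases then GCGC, were found in 20.3% of the 79 against 5.58% of all 33469 promoters in the table. The ETS letters CCGGAAG were found in 26.6% against 8.75%, and the YY1 letters AAGATGG in 24.1% against 7.01%. At least 1 of these motifs was in 58.2% against 19.1%, and the ETS and YY1 letters overlapped each other in 0 of the 79 promoters and in 6 of all promoters. By complex, NRF1 letters were in 7 of 33 promoters of complex I, 5 of 15 of complex V and 0 of 14 of complex IV. The 33469 promoters were not restricted to genes expressed here, so the shares do not compare these rows with other expressed genes. A match is a description of the letters, not of binding.

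The 5 promoters below are shown in capitals where a motif matched, in lower case elsewhere, 5′ to 3′ on the gene's strand. Sdha (chr1:30764303-30764602, plus strand) holds 3 NRF1 matches, and Cox4i1 (chr19:65630133-65630432, plus strand) holds 2 ETS matches close to its start. Atp5me (chr14:1464610-1464909, plus strand) holds 1 match to each of the 3 motifs. Uqcrq (chr10:38089929-38090228, minus strand) and Uqcrh (chr5:134790833-134791132, minus strand) each hold 1 ETS match and are shown because their transcripts moved in opposite directions in KO cells, as given further on.
Sdha: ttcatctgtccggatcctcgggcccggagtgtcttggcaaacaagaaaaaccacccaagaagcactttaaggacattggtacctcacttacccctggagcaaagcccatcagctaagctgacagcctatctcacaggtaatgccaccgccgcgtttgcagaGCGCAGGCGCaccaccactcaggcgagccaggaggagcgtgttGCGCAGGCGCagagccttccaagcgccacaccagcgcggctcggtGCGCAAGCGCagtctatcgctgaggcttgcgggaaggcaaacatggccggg
Cox4i1: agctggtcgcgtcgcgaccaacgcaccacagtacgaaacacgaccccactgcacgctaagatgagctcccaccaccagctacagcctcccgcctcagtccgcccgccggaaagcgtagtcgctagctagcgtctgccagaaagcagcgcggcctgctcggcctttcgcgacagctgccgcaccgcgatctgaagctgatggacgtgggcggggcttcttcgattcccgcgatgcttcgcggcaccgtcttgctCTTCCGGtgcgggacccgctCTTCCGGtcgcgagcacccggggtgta
Atp5me: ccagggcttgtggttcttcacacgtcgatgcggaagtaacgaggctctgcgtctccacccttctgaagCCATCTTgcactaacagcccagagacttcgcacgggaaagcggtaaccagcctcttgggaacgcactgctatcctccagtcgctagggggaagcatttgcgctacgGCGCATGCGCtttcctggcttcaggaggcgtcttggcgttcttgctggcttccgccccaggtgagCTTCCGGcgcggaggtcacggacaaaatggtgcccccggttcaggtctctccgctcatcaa
Uqcrq: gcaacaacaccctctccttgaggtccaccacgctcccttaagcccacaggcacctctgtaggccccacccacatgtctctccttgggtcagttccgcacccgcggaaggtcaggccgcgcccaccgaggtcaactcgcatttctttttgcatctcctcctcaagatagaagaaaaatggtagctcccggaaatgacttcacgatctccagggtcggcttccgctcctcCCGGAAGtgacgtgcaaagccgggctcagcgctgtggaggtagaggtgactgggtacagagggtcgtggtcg
Uqcrh: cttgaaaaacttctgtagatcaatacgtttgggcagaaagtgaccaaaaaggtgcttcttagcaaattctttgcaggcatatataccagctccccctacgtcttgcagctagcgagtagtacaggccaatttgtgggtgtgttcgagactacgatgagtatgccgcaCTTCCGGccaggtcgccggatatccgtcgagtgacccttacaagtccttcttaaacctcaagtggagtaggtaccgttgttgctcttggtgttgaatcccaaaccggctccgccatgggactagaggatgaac

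Stretch in WT cells was followed by small rises. Of the 88 rows, 5 rose and 0 fell (edgeR quasi-likelihood test with the library block, FDR under 0.05 over all 14825 tested genes). The background was 3.18% of all tested genes called higher and 4.17% called lower, and the 5 rows are 5.68% of 88. In the same fit 31 rows, or 35.2%, had an unadjusted p under 0.05, against 22.5% of all tested genes. DESeq2 called 6 rows, all higher, and 8.88% of all tested genes in either direction. The rows that rose were Ndufb9 and Ndufv2 at 1.24-fold, Ndufa5 and Sdhb at 1.21-fold and Uqcrh at 1.20-fold (WT stretch against static). The median log2 fold change was 0.14 for the 88 rows and 0.0031 for all tested genes, and 82 of the 88 values were above 0. All 12 tested rows of complex IV (median 0.17), all 17 of complex V (0.13), all 9 of complex III (0.12) and all 8 assembly factors (0.12) were above 0, as were 33 of 38 rows of complex I (0.13) and 3 of 4 of complex II (0.08). In complex IV 8 of 12 rows and in complex V 6 of 17 had an unadjusted p under 0.05, and none passed the FDR threshold.

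Ndufb9, an accessory subunit in the membrane arm of complex I, was at 78.2, 95.2 and 103 CPM in WT static libraries 1, 2 and 3 and at 97.1, 99.6 and 153 CPM in WT stretch, a log2 fold change of 0.31 ± 0.08 (SE, FDR 0.0191). Each stretched library exceeded the static library of its number, and the groups overlapped. Ndufv2, an iron-sulfur subunit of the NADH-oxidising module, went from 69.9, 90.1 and 91.4 CPM to 91.2, 90.9 and 131 CPM (0.31 ± 0.08, FDR 0.0301). Ndufa5, an accessory subunit of the matrix arm, went from 40.6, 46.0 and 53.5 to 47.9, 49.5 and 74.4 CPM (0.28 ± 0.08, FDR 0.0390). In all 3 genes the number 2 libraries differed least between the conditions.

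Sdhb of complex II was at 78.6, 84.6 and 90.9 CPM in WT static and 91.4, 91.2 and 127 CPM in WT stretch (0.27 ± 0.07, FDR 0.0267), so every stretched library lay above every static library. Uqcrh, the hinge protein of complex III that contacts cytochrome c1, was at 91.1, 104 and 129 CPM against 110, 117 and 165 CPM (0.27 ± 0.06, FDR 0.0146). It was higher in the stretched library of each number, and its groups overlapped. The other reference subunits did not pass the test, with log2 fold changes of 0.16 ± 0.07 for Cox4i1, 0.17 ± 0.07 for Cox5a, 0.07 ± 0.06 for Uqcrc1, 0.04 ± 0.06 for Ndufs1 and for Sdha, 0.03 ± 0.06 for Atp5f1a, 0.02 ± 0.05 for Uqcrfs1, 0.01 ± 0.06 for Atp5f1b and -0.04 ± 0.06 for Ndufv1.

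The shift differed between the library numbers. Within number 1, 80 of 88 rows were higher in the stretched library, with a median log2 difference of 0.15, and within number 3, 86 were, with a median of 0.32. Within number 2, 24 were higher and the median was -0.04. Over all 3 numbers, 22 rows were higher in every pair and 0 were lower in every pair. The counts within numbers were not made for all tested genes, so they have no background and are not shown to be particular to these rows. Without the block 0 rows and 0.769% of all tested genes were called. The count was 0 without WT static library 1 or 3 or without WT stretch library 1 or 3, where 3.13% to 4.28% of all tested genes were called. It was 36 without WT static library 2, where 11.7% were. The median of the tested rows was 0.07 without WT static library 3, 0.08 without WT stretch library 3 and 0.23 without WT static library 2. The 55 tested rows with an exon length under 1000 bases had a median of 0.16 and the 33 longer rows a median of 0.12, beside 0.12 for all 1623 short genes tested. With a length trend taken out within each library, 5 rows and 9.42% of all tested genes were called, and the median of the 88 was 0.05.

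**Figure D3:**
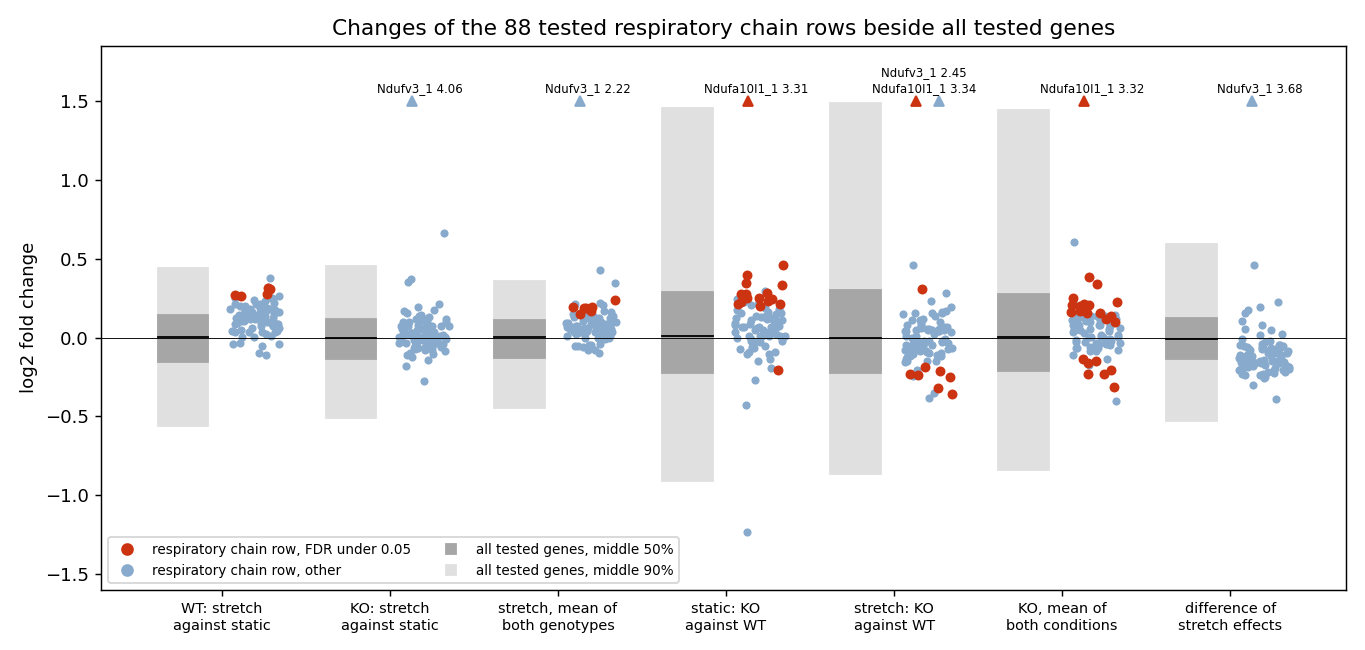
Log2 fold change of the 88 tested rows (points; red, FDR under 0.05) in each comparison, beside the middle 50% and 90% of all 14825 tested genes (dark and light grey, with the median as a line). Values beyond 1.5 are drawn as triangles at the edge with their value. Apart from Ndufa10l1_1 (3.31 and 3.34 in KO against WT) and the low-count row Ndufv3_1, from -1.23 to 4.06, the rows lie between -0.43 and 0.66.

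In KO cells, no row passed the threshold for stretch. By edgeR 0 of 88 passed the FDR threshold, 5 had an unadjusted p under 0.05 (5.68%, against 17.3% of all tested genes), limma called 0 and DESeq2 called 1. The background was 1.75% of all tested genes called higher and 3.52% called lower by edgeR. In either direction DESeq2 called 6.06% and limma 3.78%. The median log2 fold change was 0.01, and 53 of 88 values were above 0. Without KO stretch library 3 the count was again 0 and the median was -0.03. The count was 1 without KO stretch library 1 or 2 or without WT static library 2. In these fits 2.71% to 6.53% of all tested genes were called. The row of smallest p was Atp5md, an accessory subunit of ATP synthase, at 0.35 ± 0.10 (FDR 0.0607), whose reads were nearly all shared. Among the 10 reference subunits the values lay between -0.13 ± 0.05 (Uqcrfs1) and 0.11 ± 0.07 (Sdhb), and none passed. Ndufv3_1 had a log2 fold change of 4.06 ± 1.94 that did not pass and rests on the 196 reads of KO stretch library 3.

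The difference between the stretch effects, KO minus WT, was tested directly. By edgeR 0 of 88 rows passed, beside 0.0877% of all tested genes called in either direction, and 8 had an unadjusted p under 0.05 (9.09%, against 6.12% of all tested genes). DESeq2 and limma also called 0 rows, and 0.304% and 0.0135% of all tested genes. The median difference was -0.12 and 76 of the 88 values were below 0, against 7626 of the 14825 tested genes. Without KO stretch library 3 the count was 0, beside 0.066% of all tested genes, and the median was -0.16. The median was -0.05 without WT static library 3, -0.07 without WT stretch library 3 and -0.22 without WT static library 2. It was -0.07 with the length trend taken out and -0.05 with libraries 1 and 2 only. Values of the genes that rose in WT were -0.30 ± 0.11 for Ndufb9 (FDR 0.644), -0.23 ± 0.09 for Uqcrh (FDR 0.695) and -0.24 ± 0.11 for Ndufv2 (FDR 0.815). The smaller number called in KO cells is therefore not shown to be a different response. Averaged over both genotypes, 7 rows rose and 0 fell with stretch, beside 6.27% of all tested genes called higher and 8.2% lower. They were Atp5md, Ndufa5, Sdhb, Ndufv2, Ndufab1, Cox7a2l2 and Uqcrh, between 0.15 ± 0.04 (Uqcrh) and 0.24 ± 0.07 (Atp5md). Atp5md, with 1.86% unique reads, and Cox7a2l2 turned to slightly negative values with unique reads only. Atp5md held 5 to 28 unique reads per library. For Cox7a2l2, 1117 of 4129 reads were unique in KO stretch library 3, against 3454 of 3763 in KO static library 3. The part of these low unique counts in the negative values was not tested. The count was 0 without KO stretch library 3, where the median was 0.05 in place of 0.08, and 0 without KO static library 3. It was 1 without WT static library 1 or 3, WT stretch library 3 or KO static library 2, 2 without WT stretch library 1, 3 without KO stretch library 1, and 28 without WT static library 2. Of all tested genes 17.4% were called without WT static library 2, and 9.52% to 11.9% without the other libraries named here.

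Between genotypes, KO against WT in static cells, 17 of 88 rows rose and 1 fell. The rises are 19.3% of the rows, near the 20.1% of all tested genes called higher, while the single fall is 1.14% beside 17.9% of all tested genes called lower. The changes were small for this comparison. The median absolute log2 fold change was 0.12 in the 88 rows against 0.25 in all tested genes, and 1 row, Ndufa10l1_1, changed at least 2-fold against 1676 genes in all. The SE was 0.0817 at the median row and 0.106 at the median gene. The row that fell was Ndufa10l1_2, described with its namesake further on. With the length trend taken out, 11 rows were called higher and 9 lower, beside 39.9% of all tested genes in either direction. Rises were counted in 7 of 38 rows of complex I, 1 of 8 assembly factors, 0 of 4 of complex II, 2 of 9 of complex III, 4 of 12 of complex IV and 3 of 17 of complex V.

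Apart from Ndufa10l1_1, the largest rise was in Uqcrq, a small subunit of complex III. Its level was 67.9, 77.7 and 83.1 CPM in WT static libraries and 95.6, 89.0 and 136 CPM in KO static libraries, a log2 fold change of 0.46 ± 0.09 (FDR 0.00112). All KO libraries lay above all WT libraries, and the call held without any single library, as did that of Ndufs5. Uqcrb_1, a single-exon row of another small subunit of complex III, rose by 0.39 ± 0.12 (FDR 0.0222), with 34.5% of its reads unique, and lost its call with unique reads only and also without any 1 of the WT static libraries or KO static library 1 or 2. Its multi-exon namesake Uqcrb_2 stood at 32.6 ± 2.7 CPM in WT static and 37.4 ± 6.9 CPM in KO static (SD, n = 3) and did not pass.

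In complex I, Ndufs5, an accessory subunit on the intermembrane side, went from 40.1, 50.3 and 54.6 CPM to 51.8, 57.6 and 76.0 CPM (0.35 ± 0.09, FDR 0.00409), higher within each library number though the groups overlapped. Ndufa2, an accessory subunit of the matrix arm, rose by 0.28 ± 0.10 (FDR 0.0278), and Ndufab1, the mitochondrial acyl carrier protein, by 0.27 ± 0.08 (FDR 0.0137). Ndufaf8, an assembly factor, rose by 0.33 ± 0.11 (FDR 0.0279). In complex IV, Cox6a1 rose by 0.27 ± 0.08 (FDR 0.0186), with 48.1% unique reads over all 12 libraries. In the number 3 libraries, 2611 of its 4789 reads were unique in WT static and 5824 of 10430 in KO static. The other 9 rows that rose were Ndufa11, Ndufa12, Ndufs4, Cox5b, Cox7c, Cox8a, Atp5f1d, Atp5pb and Atp5pf, all between 0.20 and 0.26. Of the reference subunits none passed, with Cox4i1 at 0.16 ± 0.07, Sdha at 0.13 ± 0.06, Ndufs1 and Uqcrc1 at 0.12 ± 0.06, Cox5a at 0.11 ± 0.07, Atp5f1b at 0.06 ± 0.06, Sdhb at 0.01 ± 0.07, Atp5f1a at -0.05 ± 0.06, Uqcrfs1 at -0.06 ± 0.05 and Ndufv1 at -0.10 ± 0.06.

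These static calls depended on single libraries. The count of called rows was 35 without WT static library 2, and 5 without WT static library 1 or without KO static library 1. It was 7 without WT static library 3 and 11 without KO static library 3. Without these libraries, 30.8% to 37% of all tested genes were called. The median of the tested rows, 0.09 with all libraries, was 0.02 without WT static library 3 and 0.16 without WT static library 2. Within numbers 1 and 3 the median log2 difference between KO and WT was 0.16 in both, and within number 2 it was -0.07, with 33 of 88 rows higher in KO. Again, no count within numbers was made for all tested genes.

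Under stretch, KO against WT, 2 rows rose and 7 fell. That is 2.27% of the rows called higher beside 19.3% of all tested genes, and 7.95% called lower beside 18.5%. The median log2 fold change was -0.02, and the count was 9 as well without KO stretch library 3, as 1 higher and 8 lower with a median of -0.06. With the length trend taken out it was 4 higher and 15 lower. Of all tested genes 31.9% were called without KO stretch library 3, and 41.2% with the length trend taken out. Uqcrq was again higher, at 72.8, 70.1 and 114 CPM in WT stretch and 85.8, 91.9 and 141 CPM in KO stretch (0.31 ± 0.09, FDR 0.0154), and this call was lost without KO stretch library 3, WT stretch library 1 or WT stretch library 2. Ndufb6, an accessory subunit in the membrane arm of complex I, was at 42.7, 45.4 and 63.9 CPM in WT and 31.3, 34.2 and 54.2 CPM in KO cells (-0.36 ± 0.08, FDR 0.00255), and was lower in KO within each number.

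Uqcrh fell from 110, 117 and 165 CPM to 84.8, 92.2 and 139 CPM (-0.32 ± 0.06, FDR 0.000543), and Uqcrfs1 from 121, 124 and 152 CPM to 105, 102 and 136 CPM (-0.21 ± 0.05, FDR 0.00514). Both were lower in KO within each number. Cox7a2l, a factor that joins complexes III and IV into supercomplexes, went from 119, 129 and 167 to 101, 109 and 142 CPM (-0.24 ± 0.06, FDR 0.00540). Ndufb9 fell by 0.23 ± 0.08 (FDR 0.0223) and Sdhc by 0.18 ± 0.06 (FDR 0.0345), and both lost their calls without WT stretch library 1 or 3 or KO stretch library 1 or 2. The seventh was Ndufa10l1_2. Ndufb6, Uqcrh, Uqcrfs1 and Cox7a2l kept their calls without any single library, and their values without KO stretch library 3 were -0.46, -0.38, -0.24 and -0.27. The other reference subunits did not pass, and lay between -0.15 ± 0.07 (Sdhb) and 0.11 ± 0.05 (Ndufs1).

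Averaged over static and stretched cells, KO against WT, 17 rows rose and 7 fell, or 19.3% and 7.95% of the 88 rows. Of all tested genes, 25.3% were called higher and 24.2% lower. With the length trend taken out the split was 13 higher and 17 lower, and without KO stretch library 3 it was 11 higher and 6 lower. Without WT stretch library 2 it was 7 higher and 8 lower. Of all tested genes 52%, 45.8% and 45.6% were called in these fits, in the same order. Subunits of a complex moved in opposite directions. In complex III, Uqcrq (0.39 ± 0.07, FDR 0.000170) and Uqcrb_1 (0.34 ± 0.09, FDR 0.00511) rose while Uqcrh (-0.20 ± 0.04, FDR 0.000903) and Uqcrfs1 (-0.14 ± 0.04, FDR 0.00719) fell. In complex II, Sdha rose by 0.10 ± 0.04 (FDR 0.0423) and Sdhc fell by 0.16 ± 0.05 (FDR 0.00852). In complex I, Ndufs5, Ndufa2 and Ndufab1 rose by 0.25 ± 0.06, 0.23 ± 0.07 and 0.21 ± 0.06, and the core subunit Ndufs1 by 0.12 ± 0.04 (FDR 0.0196), while Ndufb6 fell by 0.23 ± 0.06 and the assembly factor Ndufaf2 by 0.31 ± 0.11. In complex IV, Cox7c rose by 0.21 ± 0.06 and Cox7a2l fell by 0.15 ± 0.04. In complex V, 3 rows rose and none fell, among them Atp5me at 0.21 ± 0.08 (FDR 0.0439). The calls of Sdha, Ndufs1, Atp5me and Ndufaf2 were lost without KO stretch library 1 or 3 and without 2 to 6 of the other libraries, while those of Uqcrq, Uqcrb_1, Ndufs5, Ndufab1, Uqcrh, Uqcrfs1, Ndufb6, Sdhc and Cox7a2l held without any single library. With unique reads only, Uqcrb_1 was at 0.10 ± 0.11 (FDR 0.515) and Ndufs5 at 0.13 ± 0.08 (FDR 0.212), and neither passed. In KO stretch library 3, 381 of 2446 reads of Uqcrb_1 and 1178 of 3075 of Ndufs5 were unique. In KO stretch library 1, 380 of 932 and 898 of 1398 were. The part of library 3 in these unique-read values was not tested.

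**Figure D4:**
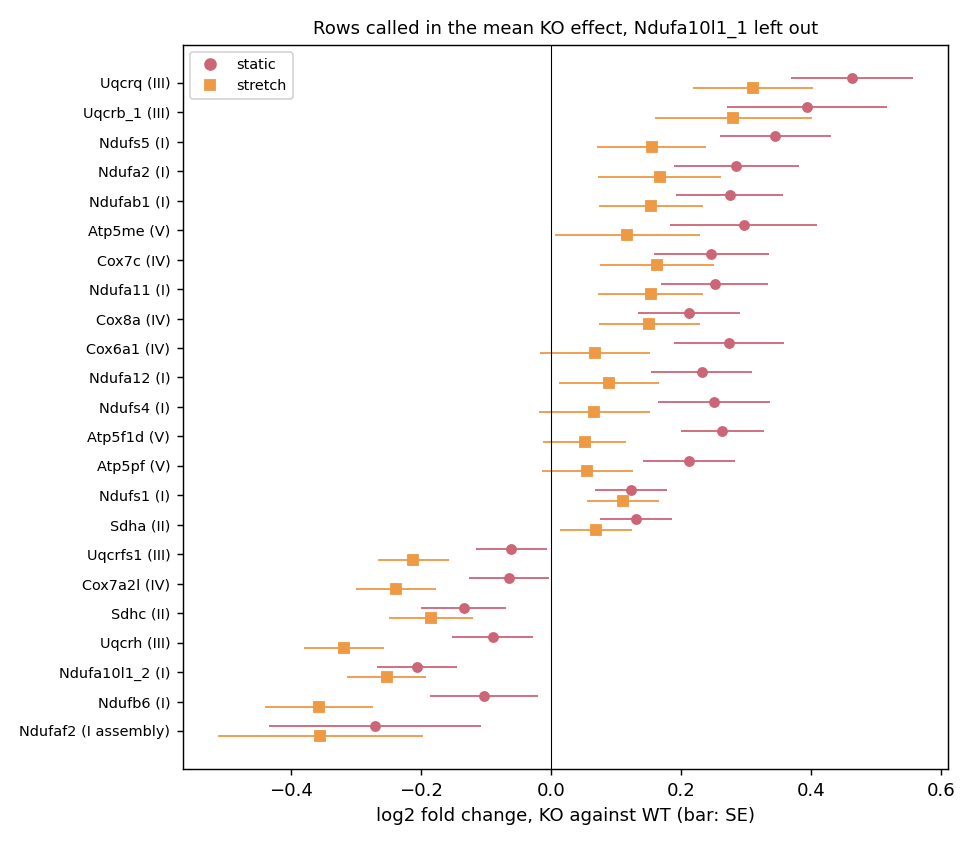
Log2 fold change of KO against WT in static (circles) and stretched cells (squares), with the SE as bars, for the 23 rows other than Ndufa10l1_1 called in the average of both conditions. The 16 rows at the top were higher in KO cells, with Uqcrq highest at 0.46 in static and 0.31 in stretched cells, and the 7 at the bottom were lower.

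The comparisons share libraries, since KO stretch and WT stretch enter both the stretch and the genotype comparisons, and their values are therefore not independent. These are bulk libraries, so fewer cells of a kind and less RNA per cell cannot be told apart. The summed smooth muscle markers were 4415 to 5226 CPM in WT static, 4989 to 6120 in WT stretch, 3555 to 4468 in KO static and 2979 to 3980 in KO stretch. Of the other marker lists, 5 epithelial genes, 3 of them under 1 CPM everywhere, summed to 22.2 to 29.8 CPM in WT and 31.1 to 53.2 CPM in KO libraries. The 6 striated muscle genes summed to 6.79 to 10.1 CPM in WT and 9.38 to 15.2 CPM in KO libraries, 5 leukocyte genes to 1.68 to 3.04 CPM and 4 adipocyte genes to 0.525 to 1.35 CPM. The 5 endothelial genes, 3 of them under 1 CPM everywhere, summed to 10.2 to 12.9 CPM in WT static and 6.86 to 7.39 CPM in WT stretch. Their sum was 5.52 to 6.80 CPM in KO static and 4.56 to 7.54 CPM in KO stretch, so WT static lay above the other groups. The part of these lists in the stretch and genotype values was not tested.

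Among the called rows the largest difference was in 1 row of a pair that share the name Ndufa10l1, for an accessory subunit of complex I. Row Ndufa10l1_1 (ENSRNOG00000062245) is a single exon of 1929 bases on chromosome 6, from 62796456 to 62798384 in Rnor_6.0. Row Ndufa10l1_2 (ENSRNOG00000016470) has 10 exons on chromosome 9, from 99617052 to 99651813. RefSeq on GRCr8 lists Ndufa10l1 on chromosome 6 and Ndufa10 on chromosome 9. Many of their reads map to more than 1 place, and 45.9% of the reads of the chromosome 6 row and 47.8% of those of the chromosome 9 row were unique.

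The chromosome 6 row, Ndufa10l1_1, held 41, 28 and 51 reads in WT static libraries and 47, 30 and 61 reads in stretched WT libraries. In KO cells it held 362, 399 and 729 reads when static and 396, 322 and 710 when stretched. Every KO library lay above every WT library in both conditions. In CPM the means were 1.83 ± 0.25 (SD, n = 3), 1.70 ± 0.56, 18.1 ± 1.6 and 17.1 ± 2.2. The log2 fold change of KO against WT was 3.31 ± 0.15 in static cells (FDR 3.82e-11) and 3.34 ± 0.15 under stretch (FDR 2.49e-11), or 9.93-fold and 10.1-fold. With unique reads it was 3.61 ± 0.25 and 3.11 ± 0.24, from 14, 12 and 23 unique reads in WT static against 195, 207 and 343 in KO static. The call held under all 9 alternatives and without each of the 12 libraries. The authors' deposited table gives a fold of 9.85 (FDR 3.39e-29) in static and 10.03 (FDR 5.29e-30) in stretched cells.

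The chromosome 9 row, Ndufa10l1_2, was slightly lower in KO cells. Its level was 91.1, 96.6 and 103 CPM in WT static and 79.4, 83.9 and 88.8 CPM in KO static libraries, which did not overlap. Its mean level was 96.9 ± 6.1 CPM in WT static, 108 ± 13 in WT stretch, 84.0 ± 4.7 in KO static and 90.3 ± 9.8 in KO stretch. The log2 fold change of KO against WT was -0.21 ± 0.06 in static cells (FDR 0.0141) and -0.25 ± 0.06 under stretch (FDR 0.00330). With unique reads it was -0.12 ± 0.10 (FDR 0.377) and -0.42 ± 0.10 (FDR 0.00245). Its unique reads per 1e6 were 51.1, 48.1 and 62.3 in WT stretch and 41.3, 43.6 and 33.9 in KO stretch. The number 3 libraries thus differed most. In KO stretch library 3, 1230 of 3688 reads of this row were unique, against 1030 of 2102 in library 1. The unique-read value without library 3 was not fitted. The 2 rows together were at 98.8 ± 6.3 CPM in WT static, 109 ± 13 in WT stretch, 102 ± 5.0 in KO static and 107 ± 12 in KO stretch, so the groups of the sum overlapped. The chromosome 6 row made up 1.85% ± 0.15 of the reads of both rows in WT static, 1.54% ± 0.39 in WT stretch, 17.7% ± 1.5 in KO static and 15.9% ± 0.26 in KO stretch.

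**Figure D5:**
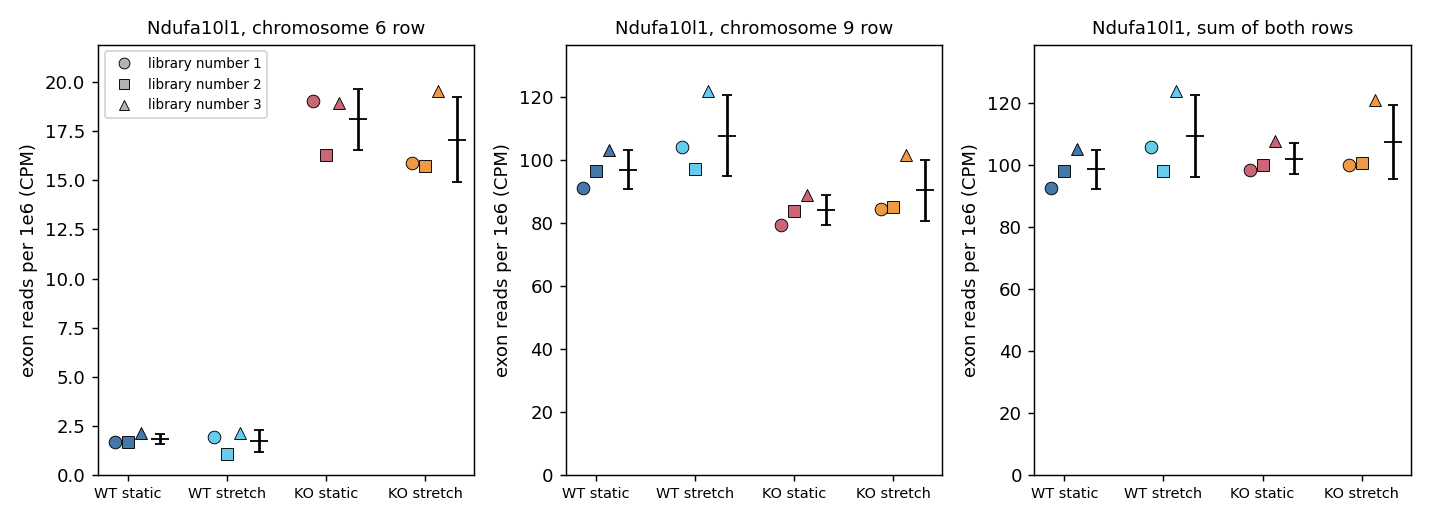
Exon reads per 1e6 of the chromosome 6 row, the chromosome 9 row and their sum in each library (marker, library number), with the mean and SD of 3 libraries as a black bar. The KO libraries hold 15.8 to 19.6 CPM of the chromosome 6 row and the WT libraries 1.07 to 2.13, while the sum lies between 92.8 and 124 CPM in all groups.

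Related mitochondrial genes were described from lists, and the genes named are examples, mostly ones that passed the test. The background for KO against WT was 20.1% of all tested genes higher and 17.9% lower in static cells, and 19.3% and 18.5% under stretch. Of the 13 mitochondrially encoded subunits, all lay above 0 with stretch in both genotypes, with medians of 0.22 in WT and 0.13 in KO cells, and by edgeR none passed the FDR threshold, with 5 of 13 in WT and 0 of 13 in KO cells at an unadjusted p under 0.05. KO against WT, none passed in static cells (median -0.10, 0 of 13 at an unadjusted p under 0.05) and 2 fell under stretch, Mt-nd1 by 0.29 ± 0.10 and Mt-nd2 by 0.29 ± 0.10, both subunits of complex I. Those 2 are 15.4% of the list, and without KO stretch library 3 none passed under stretch, with Mt-nd1 at -0.31 ± 0.12 and Mt-nd2 at -0.29 ± 0.12. In the average of both conditions Mt-co2, a core subunit of complex IV, fell as well, by 0.24 ± 0.08 (FDR 0.0275), a call lost without KO stretch library 3 (FDR 0.0531). Of 36 assembly factors outside the Nduf names and cytochrome c genes, 4 rose and 2 fell in KO static cells (11.1% and 5.56%). Under stretch 1 rose and 2 fell (2.78% and 5.56%), and 0 rose and 2 fell without KO stretch library 3. These shares are below the background. Uqcc2, an assembly factor of complex III, rose by 0.35 ± 0.09 in static cells (FDR 0.00770), and Cox11, a copper chaperone of complex IV, fell by 0.50 ± 0.15 (FDR 0.0133).

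Of 14 tested nuclear regulators of mitochondrial biogenesis, 1 rose and 1 fell in KO static cells (7.14% each, below the background). Under stretch 2 rose and 2 fell (14.3% each), and 1 rose and 2 fell without KO stretch library 3. Pprc1, a coactivator of the PGC-1 family, fell by 0.71 ± 0.08 in static (FDR 2.85e-06) and 0.51 ± 0.08 in stretched cells (FDR 8.77e-05), from 46.7 ± 7.6 to 28.4 ± 2.2 CPM in static cells. Esrra, a nuclear receptor that acts on these genes, rose by 0.22 ± 0.07 in static cells (FDR 0.0177). Gabpb1, a subunit of the ETS factor GABP, fell by 0.31 ± 0.08 under stretch (FDR 0.00475). Ppara, a nuclear receptor of fatty acid metabolism, rose by 1.40 ± 0.34 under stretch (FDR 0.00325). Ppargc1a, the best known PGC-1 member, held 37 reads over all 12 libraries and was not tested. With stretch, averaged over genotypes, Tfam and Tfb2m, factors of mitochondrial DNA transcription, rose by 0.16 ± 0.05 (FDR 0.0488) and 0.22 ± 0.07 (FDR 0.0333). Both calls were lost without KO stretch library 3 (FDR 0.143 and 0.0744). Of 18 genes around the tricarboxylic acid cycle, 4 rose and 3 fell in KO static cells (22.2% and 16.7%). Under stretch 3 rose and 4 fell (16.7% and 22.2%), and 1 rose and 3 fell without KO stretch library 3. The shares with all libraries are near the background. Pdk4, a kinase that switches off pyruvate dehydrogenase, rose by 1.13 ± 0.30 and 1.69 ± 0.30, and its relative Pdk1 fell by 0.71 ± 0.13 and 0.63 ± 0.13. Idh2, the mitochondrial NADP-linked isocitrate dehydrogenase, fell by 0.42 ± 0.05 under stretch (FDR 7.26e-06).

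The mitochondrial ribosome, which translates the mitochondrially encoded subunits, had 8 genes higher and 3 lower of 73 in KO static cells (10.96% and 4.11%). Under stretch 2 were higher and 12 lower (2.74% and 16.4%), and 0 and 12 without KO stretch library 3. These shares are below the background. The cytosolic ribosome, also made of short genes with a median exon length of 633 bases, had 7 of 72 higher (9.72%) and 0 lower with stretch in WT cells, beside 3.18% and 4.17% of all tested genes, and a median log2 fold change of 0.22. This median is above that of the respiratory chain rows, 0.14, and both lists were counted in the same libraries. KO against WT, 7 cytosolic ribosome genes were higher and 0 lower in static cells (9.72% and 0%). Both shares are below the 20.1% of all tested genes called higher and 17.9% called lower. Under stretch 2 were higher and 15 lower (2.78% and 20.8%), and 1 and 11 without KO stretch library 3.

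The authors' deposited table calls fewer of these rows. It has 0 rows at FDR under 0.05 for stretch in WT cells, Ndufa1 alone for stretch in KO cells, Ndufa10l1_1 alone for KO against WT in static cells, and Ndufa1 and Ndufa10l1_1 under stretch, all of them higher. Whether it used a library block is not stated. Over all genes it calls 78, 101, 2381 and 2446 rows in these 4 comparisons.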

How the data were processed

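Poly(A) RNA of 12 libraries was sequenced from directional libraries as paired-end reads and mapped to Rnor_6.0 with CLC Genomics Workbench 12.0, per the labels' protocols. The authors deposited exon read counts per gene, in whole numbers, with shared reads in the total and left out of the unique count, per the file headers. The deposited RPKM scale exon reads to exon length and to 1e6 mapped reads, per the file headers. The authors' fold is a signed score, where a negative value stands for a fall, and the authors' p-value column used here is a false discovery rate. Start coordinates in the table count from 0 and are given here counted from 1.

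Total exon counts were fitted with edgeR 4.0.16 (R 4.3.3): filterByExpr with a minimum count of 10 on the 4 groups, which left 14825 of 22081 genes, TMM scaling, and a robust quasi-likelihood fit of 4 group means with library number as a block, with 6 residual degrees of freedom. FDR is the Benjamini-Hochberg value over all tested genes, with a threshold of 0.05. The SE of a log2 fold change was derived from the quasi-likelihood test, as its absolute value over the square root of the F statistic. The pairing of library numbers comes from the labels' numbers and was checked on the data. After group means were removed, libraries of the same number correlated across genes at r = 0.18 to 0.26 for number 1, 0.14 to 0.28 for number 2 and 0.43 to 0.58 for number 3, and libraries of different numbers at -0.43 to 0.31. The ranges for numbers 1 and 2 lie within that of different numbers. The check therefore sets number 3 apart and does not show a pairing within numbers 1 and 2. Levels are CPM, counts over TMM-scaled library totals, or RPKM, with the SD of 3 libraries.

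Named rows are up to 8 risen and 8 fallen per comparison by size of change past the threshold with a mean log2 CPM of at least 2, 10 fixed reference subunits, and isoforms with their partners, and others are named where a count needed them. The members and the lists were chosen with earlier results of these data known. Alternatives were no block, other scalings, DESeq2 1.42.0, limma 3.58.1 on log2(RPKM + 0.1), no filter, unique reads, a length trend within libraries, libraries 1 and 2 only, and each library left out. For the related lists, the fit without KO stretch library 3 was added after seeing the data. The edgeR script was tested on simulated data. Promoter sequences are from RefSeq on GRCr8, and no coordinates were converted.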

Additional observations from a re-analysis of the deposited data

How the results depend on the processing

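Without the replicate block, where libraries are not compared within their number, called rows fell to 0 for stretch in WT cells, 0 for pooled stretch, 1 for KO against WT in static cells, 1 under stretch and 2 for the pooled genotype comparison, against 5, 7, 18, 9 and 24 with it. Of all tested genes, 0.769%, 2.79%, 20.8%, 20.6% and 31.9% were called without it. The common dispersion was 0.0437 without and 0.00961 with the block. For stretch in WT cells and pooled stretch the counts were 0 and 0 with libraries numbered 1 and 2 only, 1 and 2 by limma on RPKM, and 2 and 2 with upper-quartile scaling. Of all tested genes 4.66% and 9.86%, 5.77% and 12.4%, and 7.55% and 14.6% were called, in the same order. Stretch in KO cells, with 0 calls, had 1 by DESeq2, 1 with the length trend as offset and 2 with no filter on low counts. Beside these, 6.06%, 6.91% and 3.7% of all tested genes were called. KO against WT had 8 calls in static cells with libraries 1 and 2 only, 11 among the 67 rows with over 90% unique reads (chosen after seeing the data) and 19 under stretch with the length trend as offset. Of all tested genes 32.7% were called in static cells with libraries 1 and 2 only, and 41.2% under stretch with the length trend. Leaving out each library in turn gave 0 to 36 calls for stretch in WT cells, 0 to 1 in KO cells, 0 to 28 for pooled stretch, 5 to 35 for KO against WT in static cells, 7 to 11 under stretch, 15 to 36 pooled, and 0 to 0 for the difference of stretch effects. For stretch, 3.13% to 11.7%, 2.62% to 6.53% and 9.52% to 17.4% of all tested genes were called, in the same order. For KO against WT the shares were 30.8% to 37.8%, 31% to 38.8% and 44.8% to 48.7%, and for the difference 0.0132% to 0.218%. Where a group was left with 2 libraries, all groups still shared 1 estimate of the spread. For pooled stretch, Atp5md reversed to -0.022 and Cox7a2l2 to -0.078 with unique exon reads only. Atp5md held 5 to 28 unique reads per library, and 1117 of 4129 reads of Cox7a2l2 were unique in KO stretch library 3. Some of these fits use fewer libraries or reads, and the cause of the changes was not tested. Of the named values, 2033 recomputed ones counted as the same, 243 lost a call, 2 reversed and 23 gained a call. Another 30 that had no call moved by at least 1 SE. For a called value, the same means that call and direction were kept. For a value without a call, it means no call and a shift under 1 SE, whatever its sign. The 2033 include values that had no call to lose, so they do not give the share of calls kept. Rows with under 50% unique reads and those in KO stretch library 3 limit what single values show.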
